A study of Rattus norvegicus with 6 samples.

Results

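The 10 genes described here encode chaperones and stress regulators of the endoplasmic reticulum (ER): Calr, Hspa5, Hsp90b1, Canx, Pdia3, Pdia4, Pdia6, Xbp1, Ddit3 and Atf4. They were taken by symbol from a table of 17143 rat genes, and all 10 were found and passed the filter on low values. The table comes from Rat-1 fibroblasts, a cell line, that had adhered for 4 h to extracellular matrix (ECM) after seeding at 25000 cells per well. The matrix had been remodelled by matrix metalloproteinase 13 (MMP13, 2 libraries), remodelled by matrix metalloproteinase 1 (MMP1, 2 libraries) or left native (2 libraries). Both enzymes are secreted collagenases. The cells of all 3 groups were grown in DMEM with serum and lysed at the same time point, and the labels give no difference other than the matrix. Only adherent cells were lysed, and the labels give neither the tissue source of the matrix nor the dose or duration of the enzyme treatment. The comparisons ask how the transcripts of fibroblasts differ when they meet a matrix cut by either collagenase.

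The ER folds and glycosylates proteins bound for the cell surface and the matrix, and a fibroblast that secretes collagen and fibronectin depends heavily on it. When unfolded proteins build up there, sensors in the ER membrane start the unfolded protein response. In one branch the sensor ATF6 is cut and its free domain drives chaperone genes, and in a second IRE1 splices the Xbp1 messenger RNA so that it encodes an active factor. In the third, PERK phosphorylates eIF2, which slows translation in general and favours that of Atf4, whose product drives Ddit3 (CHOP). Other eIF2 kinases lead to the same Atf4 step, so Atf4 and Ddit3 are also read as markers of a wider integrated stress response. Gene-level counts show neither the splicing of Xbp1 nor the translation of Atf4.

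Promoter sequences are given first, because several of these genes share a response element that was not found in the windows of Pdia4, Ddit3 and Atf4. RefSeq promoter windows of the rat assembly GRCr8, from 250 bases before the start of transcription to 50 after it, were used for 7 of the 10 genes, all except Pdia3, Pdia6 and Canx. The ER stress response element (ERSE) was searched on both strands as CCAAT, any 9 bases and CCACG, the layout at which NF-Y and ATF6 are known to bind. It matched in 4 of these 7 genes, Calr, Hspa5, Hsp90b1 and Xbp1, against 21 of all 33468 promoter windows used (0.0627%). Pdia4, Ddit3 and Atf4 had no match to these letters in this window. The matching stretches follow with 10 bases on either side, read 5′ to 3′ on the strand of the gene, with the ERSE in capitals.
Calr: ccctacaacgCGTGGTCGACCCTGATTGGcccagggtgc
Hspa5: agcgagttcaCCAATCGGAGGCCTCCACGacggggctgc
Hsp90b1, distal: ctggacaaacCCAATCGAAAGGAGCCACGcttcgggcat
Hsp90b1, proximal: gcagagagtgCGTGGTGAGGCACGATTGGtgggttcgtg
Xbp1: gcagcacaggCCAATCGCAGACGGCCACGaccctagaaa
In Calr and in the proximal site of Hsp90b1 the element lies on the opposite strand, so CGTGG comes first. The ERSE spans bases -43 to -25 relative to the start in Hspa5, -65 to -47 in Xbp1, -72 to -54 and -176 to -158 in Hsp90b1, and -232 to -214 in Calr.

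The whole upstream part of the Hspa5 window is shown because Hspa5 is a standard readout of ER stress. Its ERSE, in capitals, lies just before the run gatatata near the end of the stretch, and further CCAAT or ATTGG letters lie upstream of it.
Hspa5, chr3:38452766-38453015, plus strand, GRCr8: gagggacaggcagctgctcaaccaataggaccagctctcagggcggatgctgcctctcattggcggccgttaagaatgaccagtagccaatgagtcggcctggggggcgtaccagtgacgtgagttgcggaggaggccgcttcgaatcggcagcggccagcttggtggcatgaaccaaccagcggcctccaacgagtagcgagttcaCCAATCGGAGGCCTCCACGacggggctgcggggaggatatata
Among the other windows shown, that of Calr lies at chr19:40213125-40213163 on the plus strand and that of Xbp1 at chr14:84604548-84604586 on the plus strand. The pair in Hsp90b1 lies at chr7:23012441-23012479 and chr7:23012337-23012375 on the minus strand. These coordinates belong to GRCr8 and not to the build rn5 of the expression table. A related element is ERSE-II (ATTGG, any base, CCACG). This element and the core TTGCATCA of elements bound by ATF4 with C/EBP factors matched in no window of the 7 genes. In all promoter windows they matched in 0.0508% and 0.795%. Bases outside the windows were not searched, so a match further upstream is not excluded.

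Levels are given in units, which are reads divided by a size factor of the library, as deposited. One read was worth between 0.735 and 1.68 units, and libraries held between 161817 and 362122 recovered reads. The deepest library was MMP13 replicate 1 and the shallowest MMP13 replicate 2. The 8 fibroblast marker genes checked, among them Col1a1 and Vim, all had reads in every group and took between 2.28% and 2.59% of reads. Marker lists of leukocytes, endothelium, epithelium, tenocytes and muscle stayed at or under 0.0181% of reads, but each held genes with reads. Of the 5 epithelial markers, Epcam had no read in any library, while 2 to 3 others had reads in each group. Reads of Rn45s, the ribosomal precursor RNA by its name, made up 0.83% ± 0.20 on MMP13-treated and 0.80% ± 0.19 on MMP1-treated matrix, against 0.320% ± 0.038 on native matrix (SD, n = 2 each). Because these are 3' end reads whose number also depends on priming, levels are compared between matrices for one gene and not between genes. Since RNA came from whole wells, fewer cells of a kind and less RNA per cell cannot be told apart.

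None of the 10 genes passed on either remodelled matrix. A gene was called at a Benjamini-Hochberg adjusted p under 0.05 in limma's moderated test across all 7284 tested genes. On MMP13-treated against native matrix 0 of 10 were called, where 0.412% of all tested genes were. On MMP1-treated against native matrix 0 of 10 were called, where 0.151% of all genes were (0.137% higher and 0.0137% lower). Between the MMP13- and MMP1-treated matrices 0 of 10 were called, against 0.0412% of all genes. At an unadjusted p under 0.05 there was 1 of 10 genes for MMP13 against native (background 8.05%), 3 of 10 for MMP1 against native (background 8.24%) and 1 of 10 for MMP13 against MMP1 (background 5.22%). The direction of these was 1 higher for MMP13 against native (background 3.90%), 2 higher (3.98%) and 1 lower (4.26%) for MMP1 against native, and 1 lower (2.64%) for MMP13 against MMP1. edgeR and DESeq2 on recovered reads also called 0 of the 10 in each comparison, and DESeq2 gave no adjusted p for Canx and Xbp1 for MMP13 against native.

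The median log2 fold of the 10 genes was 0.01 for MMP13 against native and 0.04 for MMP1 against native. Over all tested genes it was 0.01 and 0.02. Libraries of the groups did not overlap for 5 of the 10 genes for MMP13 against native, 3 higher and 2 lower, where 37.5% of all genes did not overlap (18.9% higher and 18.6% lower). For MMP1 against native they did not overlap for 5 of 10, 4 higher and 1 lower, where 38.4% of all genes did not (19.6% higher and 18.8% lower). With 2 libraries a group such separation is frequent, so it is given below as a description of each gene. Both comparisons share the native libraries, and the share of all genes separated from native in both was not counted. Folds are on the log2(value + 1) scale.

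**Figure D1:**
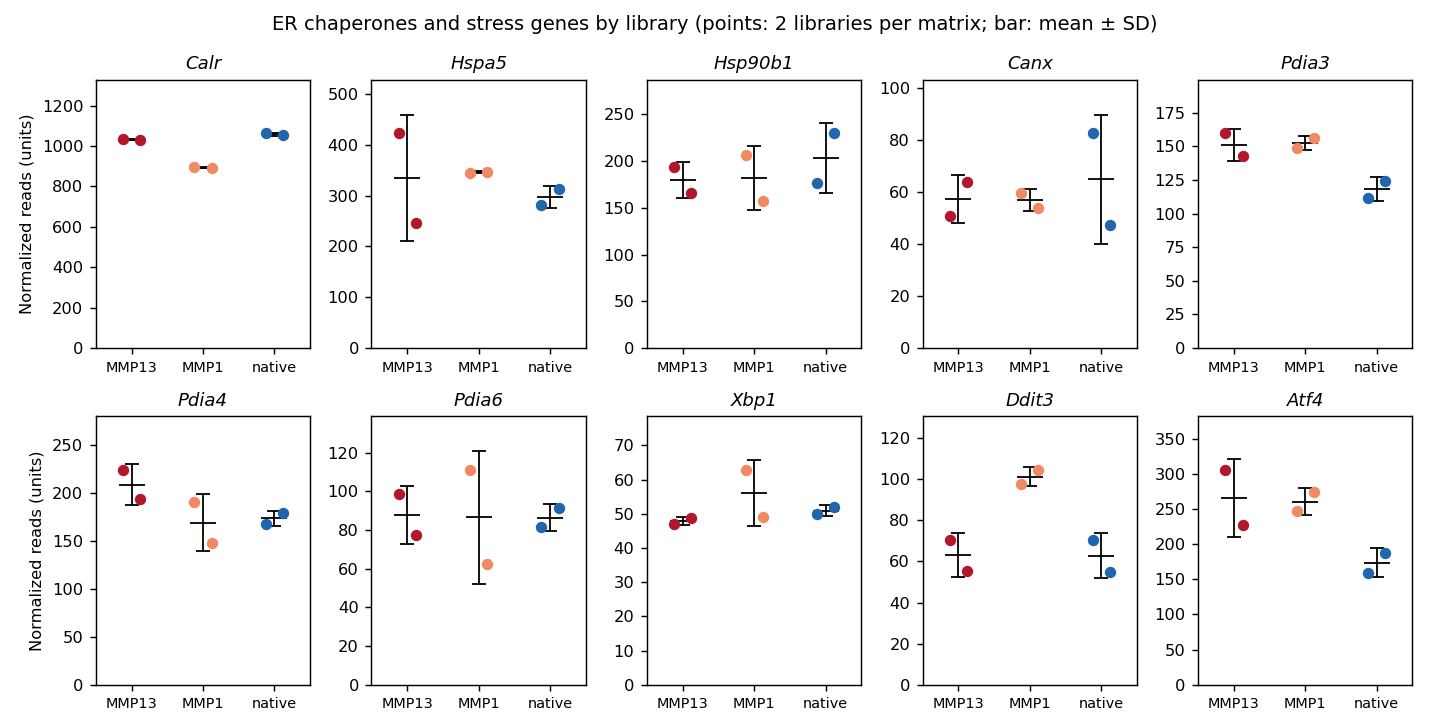
Deposited normalised reads (units, linear axes from 0) of the 10 genes in each of the 6 libraries, by matrix; points are libraries and bars the mean ± SD (n = 2). Atf4 and Pdia3 lie above native in every library on both remodelled matrices, Ddit3 lies high in both MMP1 libraries, and Calr lies low in both MMP1 libraries.

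Atf4 had the largest log2 fold of the 10 genes for MMP13 against native, and Ddit3, followed by Atf4, for MMP1 against native. Atf4, which encodes the transcription factor at the centre of the integrated stress response, had 305 and 227 units on MMP13-treated and 247 and 274 on MMP1-treated matrix, against 159 and 188 on native matrix. All 4 libraries on remodelled matrix lay above both native libraries. The means were 266 ± 55.5 units on MMP13-treated and 260 ± 19.0 on MMP1-treated matrix, against 174 ± 20.3 on native matrix (SD, n = 2 each). The log2 fold for MMP13 against native was 0.60 (SE 0.18, 95% interval 0.25 to 0.95, adjusted p = 0.12 by limma), a 1.52-fold higher level. Its unadjusted p of 8.2e-04 ranked 47 among the 7284 genes. For MMP1 against native the log2 fold was 0.58 (SE 0.18, 95% interval 0.23 to 0.94, adjusted p = 0.16 by limma), and its rank was 53. For MMP13 against native edgeR gave an adjusted p of 0.0529 and DESeq2 one of 0.0743, both above the threshold. For MMP1 against native edgeR gave an adjusted p of 0.145, and DESeq2 did not call Atf4 either. With TMM scaling the adjusted p by limma was 0.37 for MMP13 and 0.42 for MMP1 against native. The residual SD of Atf4, itself uncertain on 3 residual degrees of freedom, was 0.21 on the log2 scale. It lay above the 0.18 that limma took from genes of like level, and intervals from the own SD of Atf4 would be wider. Without the intensity trend its adjusted p was 0.84 for MMP13 and 0.77 for MMP1 against native. Both comparisons use the same native libraries and are therefore not independent of each other. The Rn45s share moved in the same direction (0.83% and 0.80% against 0.320% of reads), and its part in the Atf4 difference was not tested.

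Ddit3 encodes CHOP, a transcription factor downstream of ATF4 that is linked to growth arrest and cell death under lasting stress. It had 70.6 and 55.4 units on MMP13-treated and 97.8 and 104 on MMP1-treated matrix, against 70.5 and 55.1 on native matrix. The MMP1 libraries lay above the other 4, while MMP13 and native libraries held nearly the same pair of values. The log2 fold for MMP1 against native was 0.69 (SE 0.28, 95% interval 0.14 to 1.24, adjusted p = 0.41 by limma), and for MMP13 against native it was 0.01 (95% interval -0.54 to 0.55). The direct comparison of MMP13 with MMP1 gave -0.68 (SE 0.28, 95% interval -1.23 to -0.14, unadjusted p = 0.0144, adjusted p = 0.82 by limma). Between 33 and 96 reads per library stood behind these values, and counting alone then gives a relative error of 10.2% to 17.4%.

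Xbp1, the factor activated by IRE1 that drives chaperone and ER-degradation genes, had 47.1 and 48.7 units on MMP13-treated and 62.8 and 49.2 on MMP1-treated matrix, against 49.8 and 52.1 on native matrix. The MMP13 libraries lay just under the native ones, and the MMP1 libraries on either side of them. The log2 fold was -0.09 (95% interval -0.72 to 0.55) for MMP13 against native and 0.12 (-0.51 to 0.76) for MMP1 against native. Summed over Atf4, Ddit3 and Xbp1, levels were 423 and 331 units on MMP13-treated and 407 and 427 on MMP1-treated matrix, against 280 and 295 on native matrix. This sum is mostly Atf4, and it carries no test.

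**Figure D2:**
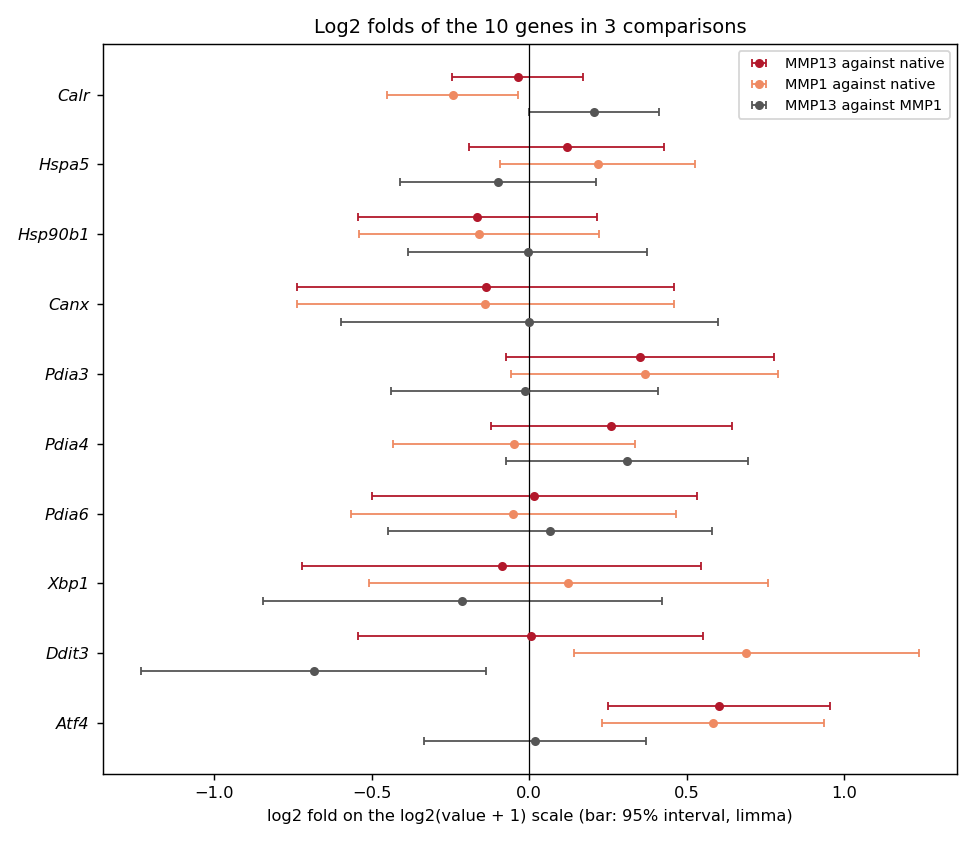
Log2 folds (x axis, log2(value + 1) scale) of the 10 genes for MMP13 against native, MMP1 against native and MMP13 against MMP1, with 95% intervals from limma. The intervals of Atf4 lie above 0 on both remodelled matrices, that of Ddit3 lies above 0 for MMP1 and below 0 for MMP13 against MMP1, and that of Calr lies below 0 for MMP1, all without passing adjustment over 7284 genes. Interval widths come from genes of like level. The own residual SD of Atf4, Hspa5, Hsp90b1, Canx and Pdia6 was larger, and intervals from it would be wider.

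The ATP-driven chaperones Hspa5 and Hsp90b1 had smaller log2 folds than Atf4, and the difference was not tested. Hspa5 encodes BiP, the ER member of the HSP70 family that binds unfolded chains and holds the stress sensors inactive. Its values were 422 and 247 units on MMP13-treated and 345 and 347 on MMP1-treated matrix, against 282 and 313 on native matrix. The MMP13 libraries enclosed all other values, and the MMP1 libraries lay above native. The log2 fold was 0.12 (SE 0.16, adjusted p = 0.91 by limma) for MMP13 against native and 0.22 (SE 0.16, adjusted p = 0.76) for MMP1 against native. Without MMP13 replicate 2 the first was 0.50, and without MMP13 replicate 1 it was -0.27, so 1 library sets its direction. The library with the high value held 362122 reads and the one with the low value 161817, and the part of depth was not tested. The replicates of Hspa5 scattered more (residual SD 0.32 on the log2 scale) than the 0.16 that limma took from genes of like level. An interval from its own SD would be wider.

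Hsp90b1 encodes GRP94, the ER member of the HSP90 family, known for folding integrins and growth factors. It had 193 and 166 units on MMP13-treated and 206 and 157 on MMP1-treated matrix, against 176 and 229 on native matrix. The groups overlapped. Its log2 fold was -0.16 against native on each remodelled matrix (95% interval -0.54 to 0.22 in both). Without native replicate 2 it was 0.025 for MMP13 and 0.030 for MMP1, and without MMP1 replicate 2 it was 0.034 for MMP1.

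The lectin chaperones calreticulin and calnexin hold newly glycosylated proteins while they fold and also bind calcium. Calr, encoding the soluble calreticulin, had 1033 and 1029 units on MMP13-treated and 895 and 892 on MMP1-treated matrix, against 1062 and 1053 on native matrix. Both MMP1 libraries lay below the other 4. The log2 fold for MMP1 against native was -0.24 (SE 0.11, 95% interval -0.45 to -0.04, unadjusted p = 0.022, adjusted p = 0.47 by limma), a 0.845-fold level. For MMP13 against native it was -0.04 (95% interval -0.24 to 0.17), and for MMP13 against MMP1 it was 0.21 (95% interval -0.0016 to 0.41, adjusted p = 0.97 by limma). Replicates of Calr had a coefficient of variation of 0.218% to 0.648%. Counting 613 to 1404 reads alone gives a relative error of 2.67% to 4.04%, so the closeness of the replicates is no measure of precision. The counting interval (exact Poisson, 95%) of MMP1 replicate 1, for example, ran from 826 to 969 units, and that of native replicate 2 from 998 to 1109. Intervals of this kind cover counting error only.

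Canx, encoding the membrane-bound calnexin, had 50.7 and 63.8 units on MMP13-treated and 59.9 and 54.0 on MMP1-treated matrix, against 82.7 and 47.5 on native matrix. The native libraries enclosed all others. The log2 fold was -0.14 in both comparisons with native, with a 95% interval of -0.74 to 0.46 in each. Without native replicate 1 it was 0.25 on both matrices, and without native replicate 2 it was -0.53. Without MMP13 replicate 1 the value for MMP13 was 0.024, so single libraries set its direction.

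The protein disulfide isomerases form and rearrange the disulfide bonds of secreted proteins. Pdia3 encodes ERp57, the isomerase that works on glycoproteins held by calreticulin and calnexin. It had 160 and 143 units on MMP13-treated and 149 and 156 on MMP1-treated matrix, against 112 and 125 on native matrix. All 4 libraries on remodelled matrix lay above both native ones, as for Atf4 and in the same direction as the Rn45s share, whose part was not tested. The log2 fold was 0.35 (SE 0.22, 95% interval -0.07 to 0.78, adjusted p = 0.72 by limma) for MMP13 against native and 0.37 (SE 0.22, 95% interval -0.06 to 0.79, adjusted p = 0.69) for MMP1 against native.

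Pdia4, encoding ERp72, had 224 and 193 units on MMP13-treated and 190 and 148 on MMP1-treated matrix, against 168 and 179 on native matrix. The MMP13 libraries lay above all others, and those of MMP1 enclosed the native ones. Its log2 fold was 0.26 (95% interval -0.12 to 0.64) for MMP13 against native, -0.05 (-0.43 to 0.34) for MMP1 against native and 0.31 (-0.07 to 0.69) for MMP13 against MMP1. Pdia6, encoding the isomerase P5, had 98.5 and 77.2 units on MMP13-treated and 111 and 62.4 on MMP1-treated matrix, against 81.4 and 91.3 on native matrix. The MMP1 libraries enclosed all others, and the log2 fold was 0.02 (95% interval -0.50 to 0.53) for MMP13 and -0.05 (-0.56 to 0.47) for MMP1 against native. Leaving out single libraries turned the sign for Pdia6 on both matrices, and for Pdia4 on MMP1-treated matrix without MMP1 replicate 2 (0.13).

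Summed over the 7 folding genes, levels were 2181 and 1919 units on MMP13-treated and 1955 and 1816 on MMP1-treated matrix, against 1964 and 2037 on native matrix. The means were 2050 ± 185, 1886 ± 98.5 and 2001 ± 51.7 units (SD, n = 2 each) on MMP13-treated, MMP1-treated and native matrix. The group sums overlapped for MMP13 and lay just under native for MMP1. Calr gave the most units in each sum, so the sums lean on this gene, and they carry no test. Among the folding genes, the highest upper limit of a 95% interval against native was 1.73-fold, for Pdia3 on MMP1-treated matrix. These intervals take their width from genes of like level. Hspa5, Hsp90b1, Canx and Pdia6 scattered more, and intervals from their own SD would be wider.

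**Figure D3:**
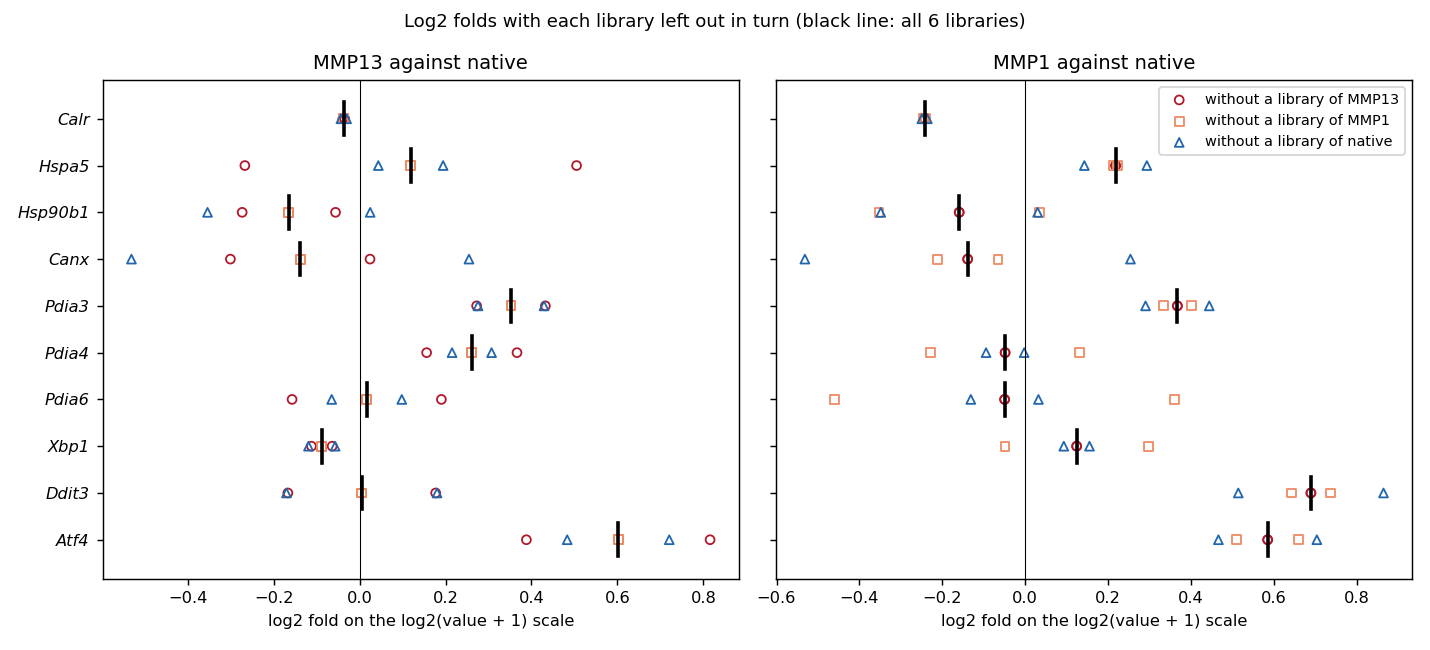
Log2 folds against native (x axis, log2(value + 1) scale) of each gene with each of the 6 libraries left out in turn; symbols show which group lost a library and the black line is the value from all 6. Atf4 stays between 0.39 and 0.82 for MMP13 and between 0.47 and 0.70 for MMP1, Ddit3 between 0.51 and 0.86 for MMP1, while Hspa5, Hsp90b1, Canx, Pdia6 and Ddit3 lie on both sides of 0 for MMP13.

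With each library left out in turn, the log2 fold of Atf4 ran from 0.39 to 0.82 for MMP13 and from 0.47 to 0.70 for MMP1 against native. That of Pdia3 ran from 0.27 to 0.43 and from 0.29 to 0.44. That of Ddit3 for MMP1 against native ran from 0.51 to 0.86, and that of Calr from -0.25 to -0.24. None of these fits called any of the 10 genes.

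Between the remodelled matrices, 4 of the 10 genes had libraries that did not overlap (background 31.4%, 15.9% higher and 15.4% lower), Calr and Pdia4 higher and Ddit3 and Xbp1 lower on MMP13-treated than on MMP1-treated matrix. For Atf4 the difference between MMP13 and MMP1 had a log2 fold of 0.02 (95% interval -0.34 to 0.37), and for Pdia3 one of -0.01 (-0.44 to 0.41). That of Hspa5 was -0.10 (-0.41 to 0.21) and that of Hsp90b1 -0.01 (-0.39 to 0.38). For comparison, Hmox1, the heme oxygenase gene, which was called in all 3 comparisons, had 835 and 749 units on MMP13-treated and 355 and 301 on MMP1-treated matrix, a log2 fold of 1.27 (adjusted p = 2.52e-12 by limma).

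**Figure D4:**
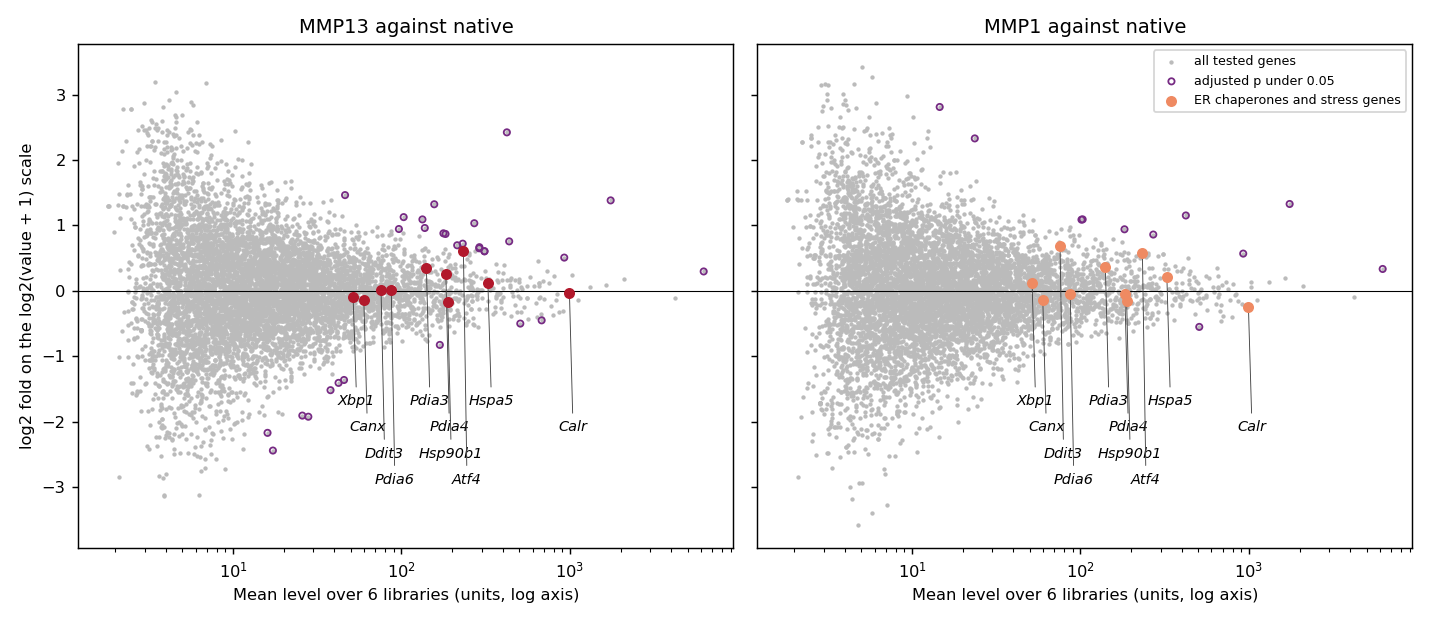
Log2 fold against mean level over 6 libraries (units, log axis) for all 7284 tested genes (grey), genes called at an adjusted p under 0.05 (open circles) and the 10 ER genes (filled), for MMP13 and MMP1 against native. The 10 genes lie between -0.16 and 0.60 for MMP13 and between -0.24 and 0.69 for MMP1, and none is circled.

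Further genes of ER function were read from 7 lists with 113 genes, of which 109 were in the table and 101 were tested. None of the 101 was called by limma in any comparison, and none by edgeR, whose filter kept 92 of the list genes. DESeq2, run on 109, also called none. A gene to which it gave no adjusted p, as for Canx and Xbp1 above, could not be called. How many list genes lacked one was not counted. At an unadjusted p under 0.05, 7 were higher and 9 lower for MMP13 against native, where 3.90% and 4.15% of all genes were. For MMP1 against native, 4 were higher and 4 lower, where 3.98% and 4.26% of all genes were. For MMP13 against MMP1, 2 were higher and 9 lower, where 2.58% and 2.64% of all genes were. The median log2 fold over the 101 genes was 0.01 and 0.08, and over all tested genes 0.01 and 0.02.

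The folding partners of the ER, which include the co-chaperones of BiP, had a median log2 fold of 0.22 for MMP13 and 0.06 for MMP1 against native over 18 tested genes, and 1 was higher and 1 lower at an unadjusted p under 0.05 for MMP13 and none for MMP1, where 3.90% and 4.15% of all genes were for MMP13. The same background, with 3.98% and 4.26% for MMP1, holds for the lists below. Hyou1, the ER nucleotide exchange factor of BiP, averaged 28.6 ± 0.095 units on MMP13-treated and 15.5 ± 4.94 on MMP1-treated matrix, against 20.1 ± 5.98 on native matrix (SD, n = 2 each). Sdf2l1, a partner of BiP co-chaperones, had log2 folds of 0.56 for MMP13 and -0.04 for MMP1 against native. Between 5 and 39 reads per library stood behind these values.

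The calnexin cycle and N-glycosylation genes had a median log2 fold of -0.05 and -0.03 over 13 tested genes, with 0 higher and 2 lower at an unadjusted p under 0.05 for MMP13 and 0 higher and 1 lower for MMP1. Ganab, the glucosidase II subunit that trims glycans for calnexin binding, had a log2 fold of 0.20 for MMP13 and 0.07 for MMP1 against native. Uggt1, the sensor that sends misfolded glycoproteins back to calnexin, had 6.62 and 3.36 units on MMP13-treated and 7.30 and 2.40 on MMP1-treated matrix, against 9.72 and 16.6 on native matrix. With 2 to 22 reads per library behind these values, its log2 fold is not read. Over the 13 translocon and signal peptide genes the medians were 0.01 and 0.08, with 0 at an unadjusted p under 0.05 in either comparison with native. Sec61a1, the channel through which chains enter the ER, had 80.9 and 65.5 units on MMP13-treated and 89.1 and 70.8 on MMP1-treated matrix, against 53.5 and 56.6 on native matrix, and Sec61b had log2 folds of -0.31 and -0.18.

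ER-associated degradation had a median log2 fold of -0.01 and 0.02 over 12 tested genes, with 1 higher and 2 lower at an unadjusted p under 0.05 for MMP13 and 1 higher and 1 lower for MMP1. Its ubiquitin ligase gene Syvn1 had log2 folds of 0.20 and 0.03, and the ligase adaptor gene Sel1l had 4.86 to 19.0 units from 4 to 13 reads per library. Herpud1, an ER membrane protein gene of this pathway that was named after its values were seen, had 56.6 and 75.6 units on MMP13-treated and 78.9 and 75.6 on MMP1-treated matrix, against 118 and 101 on native matrix. All 4 libraries on remodelled matrix lay below both native ones, with log2 folds of -0.73 for MMP13 and -0.49 for MMP1 against native (adjusted p = 0.31 and 0.65 by limma). The stress sensors were sparsely read. Eif2ak3, which encodes PERK, had between 2.92 and 13.4 units per library and Atf6 between 2.43 and 8.76, too low for their log2 folds to be read. Over the 8 tested sensor and kinase genes the medians were -0.06 and 0.13, with 0 at an unadjusted p under 0.05. Over the 10 tested ER calcium genes the medians were 0.14 and 0.04, with 1 higher and 2 lower at an unadjusted p under 0.05 for MMP13 and 0 higher and 1 lower for MMP1. The calcium pump gene Atp2a2 had 61.0 and 11.8 units on MMP13-treated and 54.0 and 31.2 on MMP1-treated matrix, against 38.9 and 38.5 on native matrix. Itpr3, a calcium release channel gene, had log2 folds of -1.06 and -0.90 (adjusted p = 0.54 and 0.65 by limma), from only 10 to 39 reads per library.

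The 27 genes listed as ATF4 and CHOP targets were all tested, and their median log2 fold was 0.03 for MMP13 and 0.21 for MMP1 against native. For MMP13 against native 4 were higher and 2 lower at an unadjusted p under 0.05, and for MMP1 against native 3 were higher and 1 lower. Of all tested genes 3.90% were higher and 4.15% lower for MMP13, and 3.98% higher and 4.26% lower for MMP1. These genes are named here after their values were seen. The higher ones were Ddit4, Nupr1 and Sars on both matrices, with Cebpb for MMP13. The lower ones were Shmt2 (log2 fold -0.49) and Eif4ebp1 (-0.58) for MMP13, and Chac1 (-1.03) for MMP1 against native, with adjusted p of 0.55, 0.54 and 0.60 by limma. The MMP13 libraries of Eif4ebp1 overlapped native, with 91.2 and 36.9 units against 86.3 and 88.3, and 7 to 24 reads per library stood behind Chac1. The classical targets Trib3 and Asns had log2 folds of 0.25 and -0.08 for MMP13 against native, and of 0.36 and 0.26 for MMP1 against native. Ddit4 and Nupr1 had the smallest adjusted p of the list for MMP13 against native, 0.0582 and 0.116 by limma. Ddit4, an inhibitor of mTORC1 signalling that many stresses induce, had 47.1 and 63.8 units on MMP13-treated and 32.1 and 43.2 on MMP1-treated matrix, against 14.6 and 27.9 on native matrix. Nupr1, a small stress-induced nuclear protein gene, had 89.0 and 85.6 units on MMP13-treated and 81.8 and 81.6 on MMP1-treated matrix, against 62.0 and 30.9 on native matrix. For both genes all 4 libraries on remodelled matrix lay above both native libraries, which their choice by unadjusted p favours. Behind the Ddit4 values stood 12 to 64 reads per library.

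**Figure D5:**
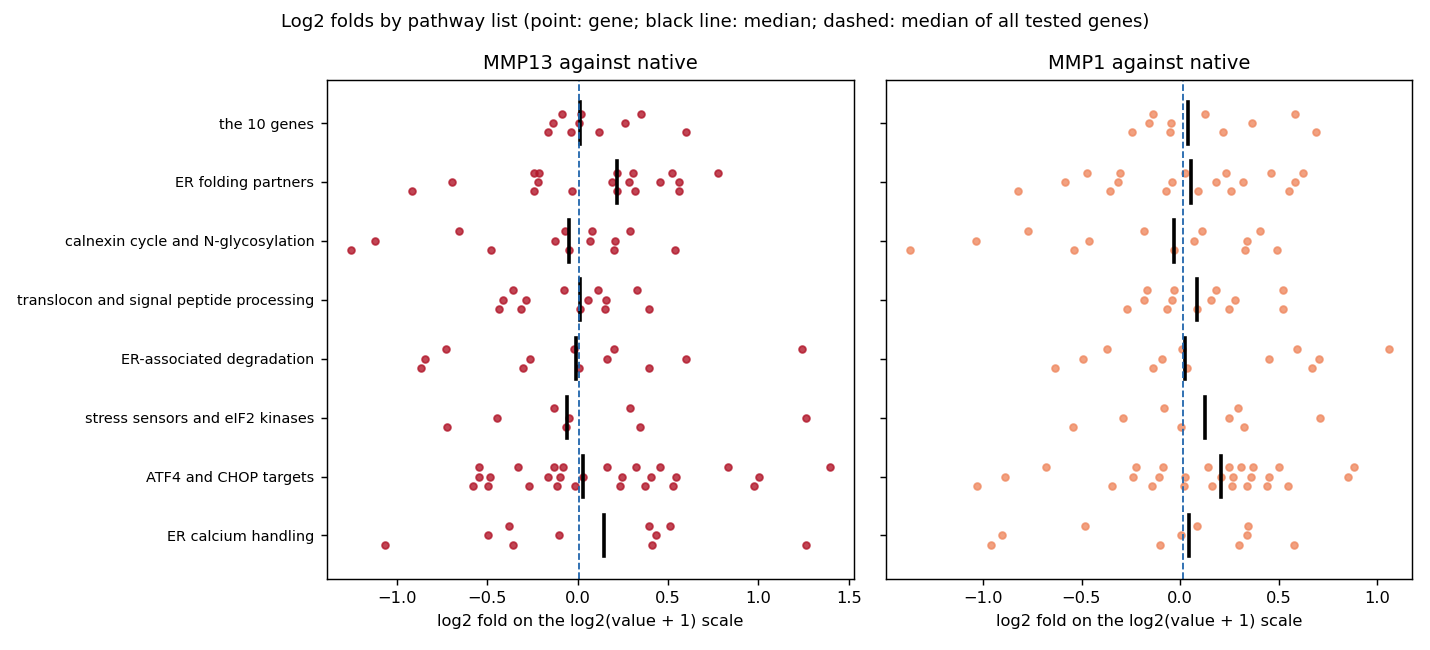
Log2 folds against native (x axis, log2(value + 1) scale) of the 10 genes and of the tested genes in 7 lists of ER function; points are genes, black lines list medians and the dashed line the median of all 7284 tested genes. List medians lie between -0.06 and 0.22 for MMP13 and between -0.03 and 0.21 for MMP1, and no gene shown passed the adjusted test.

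Set beside the promoter sequences, the 4 genes with an ERSE (Calr, Hspa5, Hsp90b1, Xbp1) had log2 folds from -0.16 to 0.12 for MMP13 and from -0.24 to 0.22 for MMP1 against native. The 3 with a window and no match (Pdia4, Ddit3, Atf4) had log2 folds from 0.01 to 0.60 and from -0.05 to 0.69. In all, 13 tested genes had an ERSE in their window, and their median log2 fold was -0.04 for MMP13 and -0.16 for MMP1 against native, where that of all tested genes was 0.01 and 0.02. This split was made after the values were seen, carries no test, and says nothing about binding.

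Genes whose log2 values followed Hspa5 most closely over the 6 libraries, among 1066 tested genes with a mean of at least 50 units, were Pmepa1 (Pearson r = 0.978), Myo1c (0.968) and Plk2 (0.945). For Atf4 they were Ppp4c (r = 0.992), Eif3d (0.988) and Pdia3 (0.987), so that 1 of the 10 genes stands among the closest to another. Ppp4c, a phosphatase subunit gene, had 221 and 178 units on MMP13-treated and 193 and 211 on MMP1-treated matrix, against 131 and 159 on native matrix. These values rank likeness over 6 libraries in 3 groups that share depth and scaling, and they carry no test.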

How the data were processed

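Gene counts of 3' end libraries, whose second read carried a random identifier (UMI) of 8 nucleotides, were deposited as a normalized signal, and per the submitters' processing notes bcl2fastq, TopHat, DESeq and the build rn5 were used, with no versions. No source used here gives the gene counter, strand use or UMI collapsing. In each library 100% of values above 0 in the deposited signal were whole multiples of 1 step (tolerance 0.01 reads), so whole reads were recovered. Genes with at least 5 units in at least 2 libraries (7284) were tested on log2(value + 1) with limma 3.58.1 (R 4.3.3, intensity trend, all 6 libraries, no block, 3 residual degrees of freedom), Benjamini-Hochberg adjusted over all tested genes. Because limma estimated infinite prior degrees of freedom, the variance of a gene is the trend's value at its level. edgeR 4.0.16 (quasi-likelihood, TMM) and DESeq2 1.42.0 (Wald) on recovered reads were alternatives. Scripts were tested on simulated data. The labels name duplicates, not separate cultures, so p-values measure spread between these libraries only. No other table entry had values identical to those of a described gene. Genes named from the lists were the first 2 tested in list order and any that passed; Ddit4, Cebpb, Nupr1, Sars, Shmt2, Eif4ebp1, Chac1 and Herpud1 fall outside this rule and were picked with their values known. The promoter of Canx is not reported here and is in none of the promoter counts, for a reason that does not concern its expression. Members, lists and tests were chosen with earlier results of these data known.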

Additional observations from a re-analysis of the deposited data

How the results depend on the processing

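None of the 10 genes was called in any of the 3 comparisons under any of 16 alternatives (10 with all libraries, 6 with a library left out). The smallest adjusted p was 0.0529 (Atf4, MMP13 against native, edgeR). The count of all genes called for MMP13 against native was 30, and 13 with no filter, 0 without the intensity trend, 6 with only the 2 groups compared, 8 with TMM scaling and 6 (without native replicate 1) to 35 with a library left out; it was 7 without MMP13 replicate 2, and 15 and 14 without MMP1 replicates 1 and 2. For MMP1 against native it was 11, and 0 without the trend, 5 with only the 2 groups, 2 with TMM scaling, 1 by DESeq2 and 3 (without native replicate 1) to 17 (without native replicate 2) with a library left out. For MMP13 against MMP1 it was 3, and 0 without the trend, 1 with only the 2 groups, 1 by DESeq2 and 1 to 27 (without MMP13 replicate 1) with a library left out. With the replicate block the counts were 21, 11 and 2. Deviations of same-numbered libraries had r of -0.07 to 0.01 over 7284 genes. Counting error is large for genes with few reads, so this check cannot exclude a shared day or culture. The labels state no pairing.

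Of 300 member folds under alternatives with all libraries, 285 kept direction and side of the threshold and 15 changed sign, all near 0. The filter, trend, block and 2-group settings leave a fold unchanged by construction. Their folds are among the 300 and could not change sign, so the 285 are no measure of stability. For MMP13 against native these were Pdia6 (-0.012 with TMM scaling) and Ddit3 (-0.0075 with quantile and -0.024 with TMM scaling). For MMP13 against MMP1 they were Hsp90b1 (0.020 quantile, 0.025 TMM, 0.013 edgeR, 0.012 DESeq2), Canx (-0.00059 quantile, -0.011 edgeR, -0.0016 DESeq2), Pdia3 (0.00059 quantile, 0.016 TMM, 0.0042 edgeR, 0.0045 DESeq2) and Atf4 (-0.014 quantile). With a library left out, 26 of 180 changed sign. The 180 include fits without a library of the group not compared, in which a fold cannot change. For MMP13 against native the ranges were -0.27 to 0.50 for Hspa5, -0.35 to 0.025 for Hsp90b1, -0.53 to 0.25 for Canx, -0.16 to 0.19 for Pdia6 and -0.17 to 0.18 for Ddit3. For MMP1 against native they were -0.35 to 0.034 for Hsp90b1, -0.53 to 0.25 for Canx, -0.23 to 0.13 for Pdia4, -0.46 to 0.36 for Pdia6 and -0.049 to 0.30 for Xbp1. For MMP13 against MMP1 they were -0.48 to 0.29 for Hspa5, -0.20 to 0.19 for Hsp90b1, -0.16 to 0.16 for Canx, -0.0945 to 0.065 for Pdia3, -0.34 to 0.48 for Pdia6 and -0.20 to 0.23 for Atf4. The causes were not tested. Among list genes, Ddit4 was called for MMP13 against native with the stricter filter and without native replicate 2. Eif4ebp1 was called for MMP13 against MMP1 without MMP13 replicate 1. A count of 0 allows up to 5.04 units in the shallowest library.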
